A study of Homo sapiens with 6 samples.

Results

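Platelet-derived growth factor (PDGF) signalling is encoded by 6 genes: the ligands PDGFA, PDGFB, PDGFC and PDGFD, and the receptors PDGFRA and PDGFRB. Binding of ZNF469, a zinc finger protein, was described at these 6 of 20033 protein-coding genes of the human genome (hg38, GENCODE version 44). A region was taken when it overlapped by at least 1 bp the gene body or the 50 kb on either side of it, here called the window of the gene. Of the 19108 regions bound by full-length ZNF469, 22 lay in these windows, 3 for the receptors and 19 for the ligands. Of the 54 regions of a ZNF469 that lacks most of its zinc fingers, 0 did. The genes were chosen by name and not by their binding, but with earlier results of these data known.

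The PDGF ligands are secreted dimers that bind receptor tyrosine kinases at the cell surface. Binding pairs 2 receptor chains, which phosphorylate each other and recruit docking proteins that pass the signal to the phosphoinositide 3-kinase, phospholipase C and RAS-MAP kinase pathways. In the liver, PDGF is among the strongest known mitogens of hepatic stellate cells, and the β receptor rises when these cells turn into collagen-producing myofibroblasts. The A and B ligands are cut by proteases inside the cell, whereas the C and D ligands carry a CUB domain that is removed outside it.

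Regions came from CUT&RUN, in which an antibody, here against ZNF469, directs a nuclease to cut and release the chromatin around its target. All 6 libraries were from LX-2, an immortalized human hepatic stellate cell line, in medium with 2-phospho-L-ascorbic acid, a stable form of vitamin C. The study's methods print its concentration as 50 mM. They also print doxycycline in mg/mL, where the labels give ug/mL, so the unit may be misprinted. Through a piggyBac transposon, cells carried doxycycline-inducible ZNF469 in its full-length form (3 libraries) or as dZF, from which most but not all zinc fingers were deleted (3 libraries), and both groups received doxycycline at 1 ug/mL for 24 h. The labels name puromycin for the selection of stable lines and the study's methods name Geneticin. The labels give each group a clone name of its own without saying whether cells or plasmids were cloned. Each construct was measured in its own transfected cells, so construct and cells cannot be told apart. Cells without doxycycline or without a transgene were not analysed here, and the lists do not separate the protein made from the transgene from the cells' own ZNF469.

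The authors joined the libraries of each group, so 1 list of regions stands for each construct and no value per library was held. No SD, no test over libraries and no omission of a library was therefore possible. What is given instead is the summit pileup of each region, the number of fragments of the pool that cover its highest point, with exact 95% Poisson limits. Beside it stands the local background, the number of fragments that the peak caller expected there. Both were recovered from the deposited fold enrichment and −log10 p, and over all full-length regions the pileup ran from 4 to 277 (median 20) with a median background of 1.82. Limits on pileups and on shares cover counting error only, and neighbouring regions of a gene are not independent of each other.

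The sequences below are the elements and summits that the results refer to. Of the 19 ligand regions, 6 held the AP-1 element, the palindrome-like site of FOS and JUN proteins, within 100 bp of the summit. Both orientations, TGACTCA and TGAGTCA, were searched, and each is printed in capitals on the hg38 plus strand with 17 bases on each side (fewer where the searched stretch ended). Region numbers count along the chromosome within the window of each gene.
PDGFB region 4, chr22:39283626-39283666: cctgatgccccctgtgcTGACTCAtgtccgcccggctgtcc
PDGFC region 4, chr4:156934095-156934135: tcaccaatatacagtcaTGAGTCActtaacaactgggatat
PDGFC region 7, chr4:156976286-156976326: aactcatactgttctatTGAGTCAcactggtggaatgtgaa
PDGFC region 8, chr4:156977495-156977535: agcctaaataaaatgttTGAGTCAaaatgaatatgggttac
PDGFC region 11, chr4:157015457-157015495: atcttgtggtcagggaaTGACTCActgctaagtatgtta
PDGFD region 2, chr11:104134948-104134988: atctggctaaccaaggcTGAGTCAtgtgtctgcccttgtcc

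The 3 receptor regions in the windows held no such element. Among the 6 receptor regions within 100 kb the share was 16.7%. The bound stretch before the PDGFRB start is shown because it was the only region within 3 kb of the outermost start of any of the 6 genes. It is written in the direction of the gene, on the minus strand, from the RefSeq promoter table (hg38 coordinates), up to the base before the outermost start. A CCAAT box and a GC box (CCGCCC, the reverse complement of GGGCGG) are in capitals. Neither lies wholly within 100 bp of the summit, so the GC box counted further below for PDGFRB region 3 is another one. The summit region of the PDGFRB intron follows on the plus strand, with a TEAD element (GGAATG) in capitals.
PDGFRB region 3, chr5:150155873-150156045: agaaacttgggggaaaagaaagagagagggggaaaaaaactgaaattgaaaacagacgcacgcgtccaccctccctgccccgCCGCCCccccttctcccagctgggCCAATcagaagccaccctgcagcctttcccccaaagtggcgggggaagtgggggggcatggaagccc
PDGFRB region 2, chr5:150141915-150142115: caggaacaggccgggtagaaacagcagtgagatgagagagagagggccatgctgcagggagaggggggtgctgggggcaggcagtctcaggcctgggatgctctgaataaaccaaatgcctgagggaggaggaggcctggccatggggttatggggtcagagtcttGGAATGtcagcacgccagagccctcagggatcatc

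The last pair shows how differently distal ligand regions were built. PDGFC region 7, the closest to its start, has an AP-1 element 2 bp from the summit in an AT-rich stretch. It also holds a TEAD element (GGAATG), which is left in lower case. PDGFB region 2, the member with the highest fold enrichment, has no AP-1 element but 3 CCAAT boxes (CCAAT or ATTGG) and 1 GC box (GGGCGG), all in capitals. Each is 201 bases on the plus strand, centred on the summit.
PDGFC region 7, chr4:156976204-156976404: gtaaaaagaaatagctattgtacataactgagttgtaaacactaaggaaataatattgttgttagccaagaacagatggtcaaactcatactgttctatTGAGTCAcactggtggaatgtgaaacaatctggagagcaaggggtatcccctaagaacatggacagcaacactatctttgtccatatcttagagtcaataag
PDGFB region 2, chr22:39184018-39184218: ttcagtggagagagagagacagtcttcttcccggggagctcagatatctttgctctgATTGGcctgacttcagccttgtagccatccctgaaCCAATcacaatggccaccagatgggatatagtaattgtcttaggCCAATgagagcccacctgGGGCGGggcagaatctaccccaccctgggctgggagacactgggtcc

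**Figure D1:**
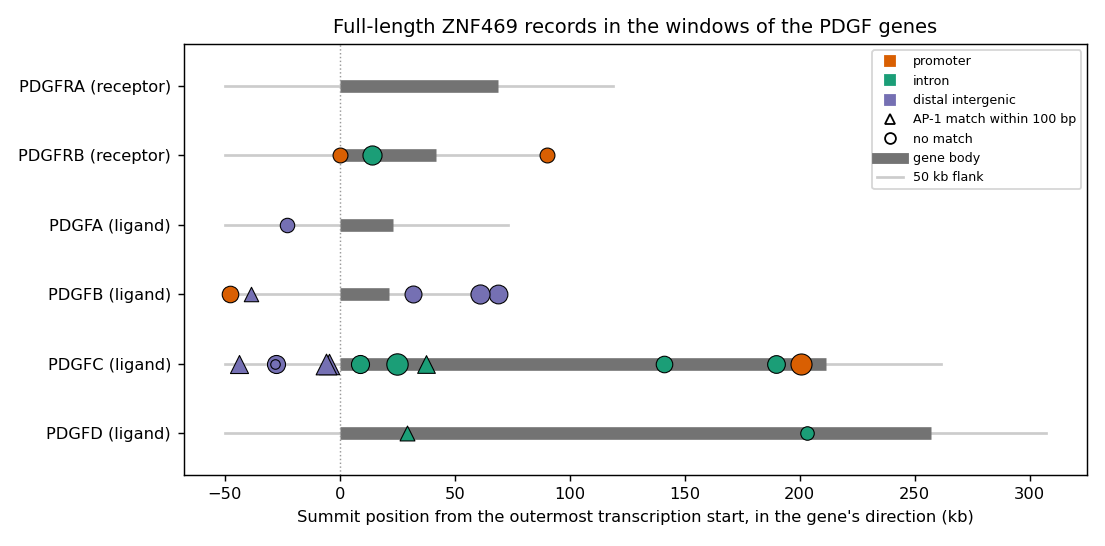
Position of each full-length region from the outermost transcription start of its gene, in kb along the direction of the gene, for the 6 PDGF genes. Symbol area follows the pileup, colours give the annotation class and triangles mark an AP-1 element within 100 bp of the summit. PDGFRA has no symbol, PDGFRB has 1 at its start, and the 11 regions of PDGFC lie in the body and upstream.

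PDGFRA encodes the α receptor, which binds dimers of the A, B and C chains. Its 69 kb body (chr4:54229280-54298245, plus strand) and both flanks held 0 regions. The nearest was 63.6 kb upstream of the outermost start, at chr4:54165231-54165931, with a pileup of 24 (15.4 to 35.7) and a background of 2.04. That region lies in an intron of ENSG00000282278, an annotated coding gene that runs through most of PDGFRA on the same strand, and held no AP-1 element. The next was 147 kb upstream, closer to the start of GSX2 (17.2 kb) than to that of PDGFRA, and had 2 AP-1 elements within 100 bp of its summit. With flanks of 100 kb PDGFRA gained 1 region, with 200 kb it had 3 and with 500 kb 14. An empty window is common: 65.1% of protein-coding genes had at least 1 full-length region in the body or within 50 kb, and 34.9% had none.

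PDGFRB encodes the β receptor, which binds the B and D chains and marks pericytes and activated stellate cells. Its window (body chr5:150113839-150155872, minus strand, 42 kb) held 3 regions, and 74.1% of protein-coding genes had fewer. Region 3 (chr5:150155758-150156045) covered the start itself. Its summit lay in exon 1, 35 bp inside the outermost start and 8 bp inside the RefSeq start. The pileup there was 17 (9.9 to 27.2) over a background of 1.03, and only 8.65% of all full-length regions had a lower background. Region 2 (chr5:150141916-150142282) lay in intron 1, 13.9 kb inside the gene, with a pileup of 28 (18.6 to 40.5) over a background of 3.45. The limits of these pileups overlap, and the fold enrichment of the promoter region was the larger of the pair, 8.87 against 6.52, because the background is part of it.

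Region 1 of the PDGFRB window (chr5:150065331-150065745) belongs by annotation to a neighbour. It lay 90.3 kb from the PDGFRB start, in CSF1R, which encodes the receptor of macrophage colony-stimulating factor. It was classed as promoter only through an annotated CSF1R start 1436 bp away, and the outermost CSF1R start was 47.8 kb off. With the promoter limit at 1 kb it was intronic. Its pileup was 17 (9.9 to 27.2) over a background of 1.74. All 3 regions of PDGFRB were GC-rich, from 60.2% to 63.2% around the summit.

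Among the ligands, PDGFA, which pairs with the α receptor, had 1 region in its window (body chr7:497258-520296, minus strand, 23 kb). It lay 22.9 kb upstream at chr7:542986-543523, outside any gene, with a pileup of 16 (9.15 to 26.0), a background of 1.49 and a GC content of 67.7%. An AP-1 element was inside the region but more than 100 bp from the summit. The body of PDGFA held 0 regions.

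PDGFB, whose chain binds both receptors, also had 0 regions in its body (chr22:39223359-39244982, minus strand, 21.6 kb) but 5 in the flanks. Downstream, region 1 (chr22:39175925-39176584) had a pileup of 27 (17.8 to 39.3) over a background of 2.88. Region 2 (chr22:39184016-39184253) had 28 (18.6 to 40.5) over 1.67, which gave a fold of 10.9, above that of 94.0% of all full-length regions. Both were closer to the start of CBX7, a Polycomb chromatin protein, than to that of PDGFB. Region 3 (chr22:39212740-39213052), 32.1 kb from the PDGFB start, had 22 (13.8 to 33.3) over 1.19 and a fold of 10.5.

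Upstream of PDGFB, region 4 (chr22:39283459-39283795) had a pileup of 16 (9.15 to 26.0) over a background of 1.55, and its AP-1 element was 48 bp from the summit. Region 5 (chr22:39292578-39292978) had 21 (13.0 to 32.1) over 1.38. It was the only PDGFB region of the promoter class, ending 10 bp from the start of the noncoding gene ENSG00000224794, 47.9 kb from the start of PDGFB. The start of RPL3, a ribosomal protein gene, was the nearest coding start to both upstream regions. PDGFB thus had 4.11 regions per 100 kb of window, a density above that of 96.1% of protein-coding genes, with each of its regions at least 32.1 kb from its start.

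PDGFC, whose latent dimer binds the α receptor after cleavage, held 11 of the 22 regions (body chr4:156760454-156971799, minus strand, 211 kb). Windows with at least 11 regions occurred at 0.614% of protein-coding genes. A long gene offers more sequence: genes with bodies of 150 to 300 kb had a median of 2 regions in the window (quartiles 0 and 4). Per 100 kb, PDGFC had 3.53 regions, above 93.1% of protein-coding genes and below PDGFB. It had 6 regions in the body, 5 upstream and 0 downstream.

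Inside PDGFC the regions were spread over 4 introns. Intron 1 held 3 of them. Region 6 (chr4:156962602-156963083), 8.9 kb inside the gene, had a pileup of 25 (16.2 to 36.9) over a background of 2.69. Region 5 (chr4:156946472-156947204), 25.1 kb inside, had the highest pileup of the 22, 35 (24.4 to 48.7), over the highest background of the 22, 6.07. Region 4 (chr4:156933778-156934412), 37.6 kb inside, had 24 (15.4 to 35.7) over 2.57, with an AP-1 element 51 bp from the summit. All 3 thus stood above the list median of pileup, and region 5 had a background above that of 98.2% of the list.

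Deeper in PDGFC, region 3 in intron 2 (chr4:156830228-156830922) had a pileup of 21 (13.0 to 32.1) over a background of 2.56. Region 2 in intron 3 (chr4:156781912-156782300) had 24 (15.4 to 35.7) over 4.41, for a fold of 4.62. Region 1 in intron 4 (chr4:156771236-156771584) had 34 (23.5 to 47.5) over 4.75. Region 1 was classed as promoter because a short PDGFC transcript starts 2133 bp from it, and it was intronic at a limit of 1 kb. None of the regions of introns 2 to 4 held an AP-1 element.

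Upstream of PDGFC, regions 7 (chr4:156976145-156976749) and 8 (chr4:156977353-156977940) lay 4.5 and 5.78 kb before the start. Their pileups were 32 (21.9 to 45.2) and 33 (22.7 to 46.3), over backgrounds of 5.04 and 4.53, and each had an AP-1 element within 100 bp of the summit. Region 9 (chr4:156998986-156999627), 27.6 kb before the start, had 25 (16.2 to 36.9) over 2.19. Region 11 (chr4:157015200-157015760), 43.6 kb before it, had 25 (16.2 to 36.9) over 1.78 and an AP-1 element 82 bp from the summit. The fold of region 11, 9.35, was the highest at PDGFC.

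Region 10 of PDGFC (chr4:156999678-156999780) stood apart. It was 103 bp wide and began 50 bp after region 9 ended. Its pileup of 7 (2.81 to 14.4) over a background of 2.25 gave a fold of 2.47 and a −log10 p of 2.65. Only 35 full-length regions (0.183%) had a −log10 p under 3.

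PDGFD, whose chain binds the β receptor, is the longest of the genes (chr11:103907189-104164379, minus strand, 257 kb), and both of its regions were intronic. Region 2 (chr11:104134780-104135231) in intron 1, 29.4 kb inside the gene, had a pileup of 17 (9.9 to 27.2) over a background of 1.23, with an AP-1 element 32 bp from the summit. Region 1 (chr11:103961074-103961272) in intron 3 had 14 (7.65 to 23.5) over 1.09. The upper limit of the latter is below the lower limit of PDGFC region 5, a pair chosen after the values were seen. At 0.56 regions per 100 kb, PDGFD stood above 40.8% of protein-coding genes, where the median gene had 0.805.

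**Figure D2:**
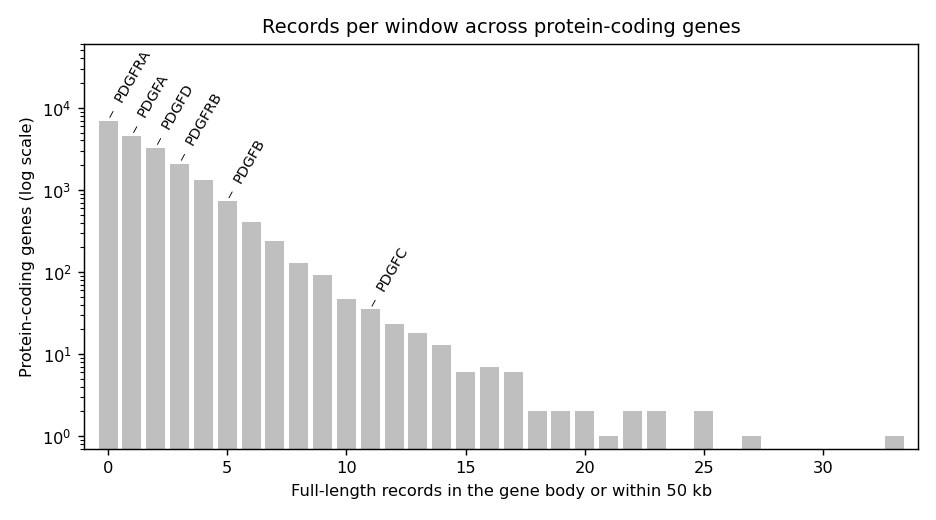
Number of protein-coding genes (log scale) by the number of full-length regions in the body or within 50 kb, with the 6 PDGF genes marked. PDGFRA falls in the bar at 0, PDGFB at 5 and PDGFC at 11, where few genes remain.

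In order of regions per 100 kb of window, PDGFB (4.11) and PDGFC (3.53) came first, then PDGFRB (2.11), PDGFA (0.813), PDGFD (0.56) and PDGFRA (0). These counts rest on 5, 11, 3, 1, 2 and 0 regions and have no spread over libraries, so no neighbours in this order are called different. A region in the body was found at PDGFRB, PDGFC and PDGFD, 3 of the 6 genes, against 33.6% of protein-coding genes. A region within 3 kb of the outermost start was found at PDGFRB alone, 1 of 6, against 21.1% of protein-coding genes. Both shares are over too few genes to be set apart from the background.

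Receptors and ligands were then compared by the kind of region. Of the 3 receptor regions, all at PDGFRB, 2 were of the promoter class (66.7%, exact binomial limits 9.43% to 99.2%), 1 was intronic (33.3%, 0.84% to 90.6%) and 0 were distal intergenic (upper limit 70.8%). Of the 19 ligand regions, 2 were of the promoter class (10.5%, 1.3% to 33.1%), 7 were intronic (36.8%, 16.3% to 61.6%) and 10 were distal intergenic (52.6%, 28.9% to 75.6%). In the whole full-length list these shares were 39.3%, 35.8% and 21.6%. The limits of receptors and ligands overlap in each class. The upper limit of the ligand promoter share is below the share of the list, and the lower limit of the ligand distal share is above it, though regions of the same gene are not independent. The list shares are over the whole genome, whereas the windows of PDGFB and PDGFC held 0 other protein-coding genes. The list was not matched for this.

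Neither of the ligand promoter regions was at a ligand's outermost start. With the promoter limit at 1 kb, only PDGFRB region 3 and PDGFB region 5, at its noncoding neighbour, stayed in that class. PDGFC supplied 5 of the 10 distal ligand regions and PDGFB 4. Without PDGFC the distal share of the ligands was 62.5% of 8 regions (24.5% to 91.5%) and the promoter share 12.5% (0.316% to 52.7%). The limits of that promoter share include the 39.3% of the list, while those of the distal share stay above its 21.6%.

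AP-1 elements lay within 100 bp of the summit in 0 of 3 receptor regions (upper limit 70.8%) and in 6 of 19 ligand regions (31.6%, 12.6% to 56.6%). In the whole list the share was 32.3%. The ligand share is thus close to that of the list, and a count of 0 among 3 cannot be told from it. By class, the element was within 100 bp of the summit in 4 of 10 distal regions of the 6 genes (list 39.5%), 2 of 8 intronic (list 38.3%) and 0 of 4 promoter regions (list 22.2%). No difference between receptors and ligands in AP-1 elements was therefore detectable with these regions. In stretches of the same length 2 kb from the summits the element was found for 2 of the 22 regions, and for 3.35% of the list.

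When the whole region was searched, 10 of 19 ligand regions (52.6%) and 0 of 3 receptor regions held an AP-1 element, against 44.1% of the list. The 6 ligand elements near a summit lay 2, 32, 48, 51, 59 and 82 bp from it. Over the list the median distance was 39 bp, and 14.4% of the elements were within 10 bp. Only that of PDGFC region 7 was so close among the ligands.

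**Figure D3:**
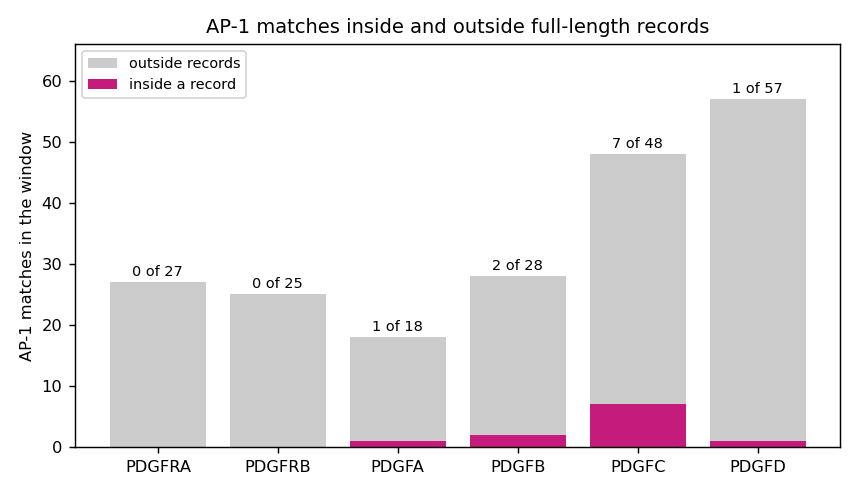
Number of AP-1 elements in the window of each PDGF gene, with the elements inside a full-length region in colour and their count over each bar. PDGFRA and PDGFRB have 27 and 25 elements and 0 in regions, while PDGFC has 7 of 48 in regions.

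The receptor windows did not lack AP-1 elements. PDGFRA had 27 (16.0 per 100 kb) and PDGFRB 25 (17.6 per 100 kb), close to the genome's 15.7 per 100 kb, and 0 of these 52 lay in a full-length region. For the 27 at PDGFRA, whose window held no region, this was fixed beforehand. For the 25 at PDGFRB the upper limit is 13.7%, but this 0 restates that none of the 3 regions there held an element. Among the ligands, 1 of 18 elements lay in a region at PDGFA, 2 of 28 at PDGFB, 7 of 48 at PDGFC and 1 of 57 at PDGFD. Over the 4 ligands this was 11 of 151 (7.28%, 3.69% to 12.7%), and 2.27% of all 462326 elements of the genome were in regions. PDGFC, with 14.6% (6.07% to 27.8%) of its elements in regions, raised this share, and without it the ligands had 4 of 103 (3.88%). Without PDGFD they had 10 of 94 (10.6%). The limits of PDGFRB and of the ligands overlap. Such shares grow with the part of the sequence that regions cover, and they were not adjusted for it. That part was 1.86% of the window at PDGFC, 1.6% at PDGFB, 0.753% at PDGFRB, 0.437% at PDGFA and 0.182% at PDGFD. The 7.28% against 2.27% is therefore not read as a preference for AP-1 elements.

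**Figure D4:**
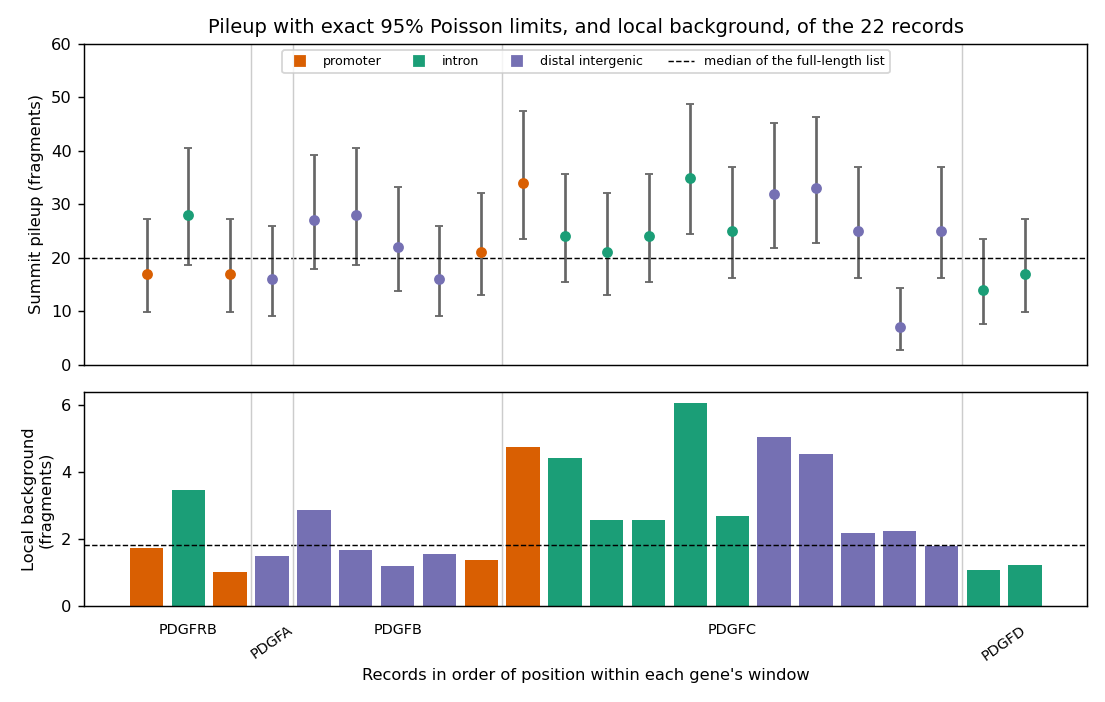
Summit pileup with exact 95% Poisson limits (upper panel) and local background (lower panel), both in fragments, of the 22 regions by gene, coloured by class. PDGFRA has no region, and dashed lines mark the medians of the full-length list, 20 and 1.82. Backgrounds above 4 are seen only at PDGFC.

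The median pileup was 17 over the 3 receptor regions and 24 over the 19 ligand regions. The range was 17 to 28 for the receptors, inside the 7 to 35 of the ligands. Without PDGFC the ligand median was 19, with a range of 14 to 28, so the higher ligand median moved with PDGFC. The 11 pileups of PDGFC had a median of 25, the 5 of PDGFB 22 and those of PDGFD 14 and 17.

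Local background set PDGFC apart from the others more than the pileup did. Its 11 values ran from 1.78 to 6.07 with a median of 2.69. The medians were 1.74 at PDGFRB, 1.55 at PDGFB and 1.16 at PDGFD, and the value at PDGFA was 1.49. Of the 11 PDGFC regions, 10 exceeded the list median of 1.82, and outside PDGFC only PDGFRB region 2 and PDGFB region 1 did. The background enters the fold, whose median was 6.15 at PDGFC, 9.24 at PDGFB and 7.36 over the list. Receptors and ligands had background medians of 1.74 and 2.25, and without PDGFC the ligand median was 1.44.

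**Figure D5:**
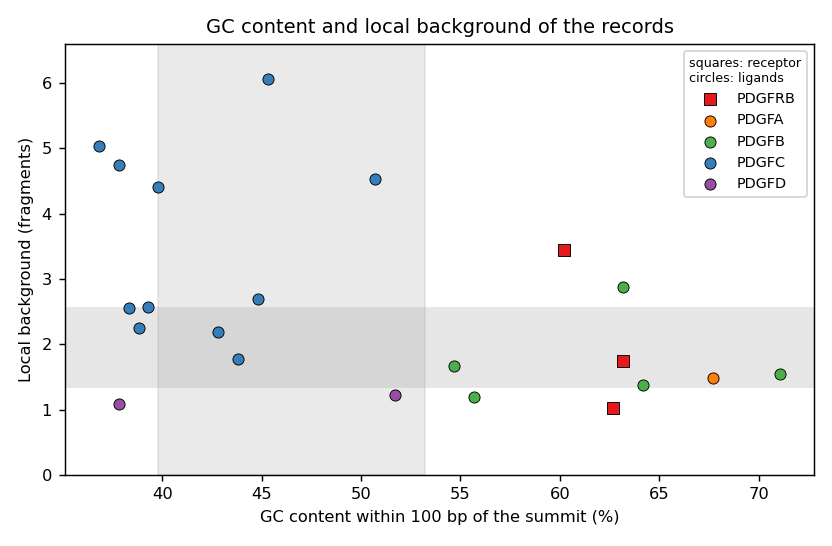
Local background (fragments) against GC content within 100 bp of the summit (%) for the 22 regions, coloured by gene, with squares for the receptor PDGFRB. Grey bands span the middle 50% of the full-length list on each axis. PDGFC lies at low GC content with the highest backgrounds, while PDGFRB, PDGFA and PDGFB lie to the right.

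Base composition placed PDGFC nearest to PDGFD, which had only 2 regions. The background did not, as its median was lowest at PDGFD, though the lowest single value was 1.03 at PDGFRB region 3. GC content around the summit ran from 36.8% to 50.7% at PDGFC and was 37.8% and 51.7% at PDGFD. It ran from 54.7% to 71.1% at PDGFB and from 60.2% to 63.2% at PDGFRB, and was 67.7% at PDGFA. The ranges of PDGFC and of PDGFB, PDGFRB and PDGFA do not overlap. The list had a median of 45.3%, and its middle 50% ran from 39.8% to 53.2%, so each region of PDGFRB, PDGFA and PDGFB lay above it. The 11 members under 50% GC, of which 10 were at PDGFC, had a median background of 2.57 and the 11 others 1.55. Over the list these medians were 1.83 and 1.79, with a Spearman correlation across regions of −0.028.

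Other short elements were counted within 100 bp of the summit on both strands, chosen after the data were seen. A TEAD element (CATTCC or GGAATG) was found in 4 of the 22 regions, namely PDGFRB region 2, PDGFC regions 7 and 11 and PDGFD region 2, and in 21.1% of the list. A GC box (GGGCGG or CCGCCC) was found in 4, namely PDGFRB region 3, PDGFB regions 2 and 4 and PDGFC region 11, and in 14.6% of the list. A CCAAT box was found in 7 (list 30.9%), and 3 or more of them, as in PDGFB region 2, occurred in 2.07% of the list.

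RefSeq promoters, from 250 bases before to 50 after a start, were matched for 4 of the 6 genes. That of PDGFRB overlapped its region 3. Those of PDGFRA, PDGFA and PDGFD overlapped 0 regions. None of the 4 held an AP-1 element, which 4.95% of 35116 RefSeq promoters did. Each had at least 1 GC box, with 2 at PDGFRA, 2 at PDGFRB, 5 at PDGFA and 1 at PDGFD, against 45.0% of all promoters with at least 1. A CCAAT box was in those of PDGFRA and PDGFRB (34.6% of all). The promoters of PDGFRA and PDGFRB, of which only the latter was in a region, had GC contents of 66.7% and 59.3% and 32 and 11 CpG. The RefSeq starts of PDGFRA and PDGFA lie inside the outermost GENCODE starts used for distances here.

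For dZF the windows of all 6 genes were empty, as were those of most genes: 0.21% of protein-coding genes had a dZF region in the body or within 50 kb. The nearest dZF region was 10229 kb from the start of PDGFC, 21607 kb from PDGFRA, 55852 kb from PDGFA and 132629 kb from PDGFRB, and chromosomes 11 and 22 had none. The lowest local background was 0.625 in the dZF list and 0.865 in the full-length list, a ratio of 1.38 that was taken as the difference in depth of the pools. With pileup and background divided by this ratio and the pileup rounded down, 21 of the 22 PDGF regions kept a −log10 p above the lowest of the dZF list, 7.62. They ranged from 8.06 at PDGFC region 2 to 18.5 at PDGFB region 2. PDGFC region 10 did not, and over the whole full-length list 85.3% did. The lists were cut by an irreproducible discovery rate and not by −log10 p, so passing 7.62 does not show that a region would have been listed. The lowest background among only 54 dZF regions may lie above the floor of that pool, so the ratio may understate the difference in depth. Whether depth accounts for the empty dZF windows was not tested. The amount of each protein in the cells was not measured in these lists, and whether it differed cannot be told apart from the deletion of zinc fingers.

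The partners of the 6 genes were described by 4 lists with 64 genes in all. A full-length region lay in the body of 37 (57.8%), against 33.6% of protein-coding genes. Such a count grows with gene length, and the lists were written with earlier results known, so the share is a description. A dZF region lay in 0 of the 64, and in 0.0499% of protein-coding genes, so that 0 says little about these genes.

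Of 12 relatives of the family (class III and V receptor kinases, the VEGF ligands and PDGFRL), 4 had a region in the body. CSF1R had 2, with pileups of 17 and 22, the former being PDGFRB region 1, and 1 of them had an AP-1 element. KIT, the stem cell factor receptor next to PDGFRA on chromosome 4, had 1 with a pileup of 32 and an AP-1 element, FLT1, a VEGF receptor, had 1 with 18, and PDGFRL, a receptor-like gene, had 1 with 19 and an AP-1 element. A region within 3 kb of the outermost start was found at 0 of the 12, and at 19 of all 64 genes of the lists, against 21.1% of protein-coding genes. These counts too are descriptions, since the lists were written with earlier results known.

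Of 7 proteases that process the ligands, 5 had 1 region each. FURIN, which cuts the A and B chains, had a pileup of 33 at its start with an AP-1 element. PLAT, the tissue plasminogen activator that activates the C chain, had 36 at its start. PLAU, the urokinase that activates the D chain, had 31 at its start. PCSK5, a convertase related to furin, had 13, and ST14, the protease matriptase, had 12, both away from the start and both with AP-1. The window of PLAT held 8 regions and that of PLAU 5.

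Of 25 co-receptors and docking proteins, 16 had a region in the body. FYN, a SRC-family kinase, led with 7 (pileups 7 to 31), followed by NRP1, a co-receptor, with 5 (12 to 24) and PIK3CB, a catalytic subunit of phosphoinositide 3-kinase, with 5 (13 to 38). Of 20 downstream kinases and brakes, 12 had one. CBLB, a ubiquitin ligase, had 4 (13 to 27), and PTPN1, a phosphatase of receptor kinases, had 4 (32 to 45). Bodies of the genes named here from both lists ran from 74.9 kb (PTPN1) to 214 kb (CBLB). They were chosen for their number of regions, and other long genes of the lists had few, such as BRAF (206 kb) with 0 and FLT1 (195 kb) with 1.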

How the data were processed

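CUT&RUN with an anti-ZNF469 antibody was performed by the authors in 6 LX-2 libraries, 3 per construct, grouped by the labels' titles. Sequencing and processing: the submitters' processing notes name bcl2fastq, Bowtie2 2.3.4.3, MACS2 2.2.5, R 4.2.1, deepTools 3.5.1 and hg38, without roles. The authors pooled each group and kept peaks that passed an irreproducible discovery rate filter. The deposited lists give, for each peak, a score, a fold ratio over local background, a −log10 p-value, a −log10 q-value (not used here) and the summit offset. Whether a control library was used is not given in the sources used here.

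The pileup was recovered as the whole number that explains fold, (pileup + 1)/(background + 1), and −log10 p, its Poisson tail. It explained 100% of the 19108 and 54 deposited records within 0.001, with a largest miss of 0.000069, and was tested on simulated data. No records overlapped, and each is called a region.

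Regions were annotated with GENCODE version 44 (promoter within 3 kb of any start, then UTR, exon, intron, downstream within 300 bp, distal). Scripts ran in Python 3.11.15 with numpy 2.4.6, scipy 1.17.1 and matplotlib 3.10.9. Pileup limits are exact Poisson and share limits exact binomial (Clopper-Pearson), at 95%. Total reads per library were not analysed here. Because 1 pooled list stands for each group, no test was run. The members and gene lists were chosen with earlier results of these data known. Genes named were the 6 members, any gene starting within 3 kb of one of their regions, and the 3 genes with the most body regions per list (all of them where tied), of which 1 is not reported here. CBX7, RPL3 and GSX2, named as nearest starts, and BRAF were chosen after their values were seen. Alternatives were flanks of 0, 20 and 100 kb, a promoter limit of 1 kb, the upper 50% of regions by fold, class or window by summit, only regions whose nearest coding start is that of the member, AP-1 as TGANTCA or by whole region, and, added after seeing the data, the ligands without PDGFC.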

Additional observations from a re-analysis of the deposited data

How the results depend on the processing

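No paired analysis was possible because each group was deposited as 1 pooled list with no replicate in it, and for the same reason no library could be left out. For 16 summary values, 79 planned and 7 added alternatives were computed, and 73 stayed within 1.5 times (counts and backgrounds) or the exact limits (shares and pileups) of the value reported. These bounds are wide with so few regions. At a promoter limit of 1 kb the receptor promoter share of 66.7% was 33.3%, the receptor intronic share of 33.3% was 66.7%, and the ligand promoter share of 10.5% was 5.26%. The receptor AP-1 share of 0% was 16.7% with flanks of 100 kb, and the ligand AP-1 share of 31.6% was 52.6% by whole region. The receptor count of 3 was 6 with flanks of 100 kb. Among the upper 50% of regions by fold (7.36 or more) it was 1, with a promoter share of 100%, an intronic share of 0% and a background of 1.03. The ligand count of 19 was 8 without flanks, 11 with flanks of 20 kb, 6 among the upper 50% by fold and 8 without PDGFC. Among the upper 50% by fold the ligand promoter share was 16.7% and the ligand intronic share, 36.8% as reported, was 16.7%. Without flanks the ligands were 87.5% intronic and 0% distal, which follows from leaving out intergenic sequence. Without PDGFC the ligand median background was 1.44. The list genes with a region in the body fell from 37 to 23 among the upper 50% by fold. The dZF count of 0 held under each alternative run. Pileups near 20 fragments carry limits of about 10 in either direction, which is the depth limit of each comparison here.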
